A study of Mus musculus with 10 samples.

Results

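The circadian clock genes described here were the 10 genes *Arntl*, *Clock*, *Cry1*, *Cry2*, *Per1*, *Per2*, *Per3*, *Nr1d1*, *Nr1d2* and *Dbp*, out of 47937 genes listed for each library of mouse visceral white adipose tissue (WAT). They were taken by symbol and chosen by the fall of *Cry1* between the genotypes on standard diet. Values and counts of calls in that contrast are therefore given as a description, with no p-value, and support nothing. All 10 genes were found and passed the filter on low counts in each comparison of groups, and 8 of them had a count in every library. The other 2, *Per2* and *Dbp*, had 0 counts in the library labelled HFD *Mof*+/- replicate 1.

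The mammalian clock is a transcription loop that runs in nearly every cell. ARNTL (BMAL1) and CLOCK bind together to E-boxes and switch on the *Per* and *Cry* genes, the nuclear receptors *Nr1d1* and *Nr1d2* (REV-ERB alpha and beta) and the output factor *Dbp*. PER and CRY proteins then hold back ARNTL and CLOCK, and the REV-ERBs hold back *Arntl*, *Npas2*, *Clock*, *Nfil3* and *Cry1*, so that in adipose tissue as in liver the *Arntl* and *Dbp* transcripts peak at opposite times of day.

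The libraries came from 4 groups of C57BL/6 mice (backcrossed to C57BL/6J by the study's methods), wild type (*Mof*+/+) or heterozygous for *Mof* (*Mof*+/-), on standard diet (SD) or high-fat diet (HFD). *Mof* codes for a histone acetyltransferase, and the heterozygous state is carried by the whole animal, not by adipocytes alone. All groups were housed on a light-dark cycle. The SD groups had 3 libraries each, from mice 8 weeks old, and the HFD groups had 2 each, from mice 27 weeks old after 20 weeks of HFD by the series description. The study's methods give other ages and feeding times. Diet and age cannot be told apart, and the time of day at which tissue was taken is not given in the sources used here. A difference in time of collection between groups was not tested. Since whole tissue was sequenced, fewer cells of a type and less RNA per cell cannot be told apart.

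Counts on genes ranged from 6724618 to 17171947 per library on SD and were 15483115 and 16014992 in HFD *Mof*+/+. They were 1044355 and 5531786 in the HFD *Mof*+/- libraries, in the first of which 3 counts correspond to 2.87 counts per 1000000 (CPM). The expression of *Mof* (listed as *Kat8*) was 20.4 to 21.5 CPM in SD *Mof*+/+ and 11.5 to 18.8 CPM in SD *Mof*+/-, where the highest value belonged to the library labelled replicate 2. On HFD it was 18.1 and 19.2 CPM in *Mof*+/+, and 20.1 and 10.5 CPM in the libraries labelled *Mof*+/- replicates 1 and 2. Only 21 counts lay behind the 20.1 CPM (95% exact Clopper-Pearson interval 12.4 to 30.7 CPM, counting error only). The column headings of 2 files name the opposite genotype, in the third SD library of either group. Groups follow the sample labels, and values with these 2 libraries exchanged are given below. The 12 adipocyte markers were found in all libraries, with a summed level of 19968 CPM or more. In HFD *Mof*+/- replicates 1 and 2, the 16 skeletal muscle markers summed to 79478 and 1922 CPM, against at most 97.7 CPM elsewhere, and mitochondrially encoded genes took 26.9% of the counts of replicate 1. Their part in the results on HFD was not tested.

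On GRCm38 the activators lie at chr7:113207465-113314126 (*Arntl*) and chr5:76209868-76304792 (*Clock*), and the cryptochromes at chr10:85131700-85185064 (*Cry1*) and chr2:92403646-92434043 (*Cry2*). The *Per* genes lie at chr11:69095217-69109960 (*Per1*), chr1:91415982-91459324 (*Per2*) and chr4:151003652-151044665 (*Per3*). *Nr1d1* is at chr11:98767932-98775333, *Nr1d2* at chr14:18204054-18239127 and *Dbp* at chr7:45705088-45710203. Counts cover all exons of a gene, so that transcript forms are not told apart.

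Promoter windows were read from RefSeq on GRCm38.p6, from 250 bases before to 50 after each start, for 9 of the 10 genes and 13 starts, and are shown where they held a motif of the loop. Both strands were searched for the E-box CACGTG, the site of ARNTL and CLOCK, for the D-box TTATGTAA, the site of DBP and its relatives and of their antagonist NFIL3, and for the ROR element, the site of REV-ERB and ROR receptors. The E-box was found in *Cry1* and *Per1* and stands in 7.15% of 32817 promoter windows. The D-box was found at 2 places in *Per3* (0.935% of windows) and the ROR element in 1 of the 2 windows of *Arntl* (0.384%), and these motifs do not overlap each other. The windows of *Cry2*, *Clock*, *Dbp*, *Nr1d1* and *Nr1d2* held none of these letters. The matched windows run 5′ to 3′ on the strand of the gene, with the motif in capitals.
Cry1, chr10:85185005-85185304, minus strand, E-box at bases 191 to 196: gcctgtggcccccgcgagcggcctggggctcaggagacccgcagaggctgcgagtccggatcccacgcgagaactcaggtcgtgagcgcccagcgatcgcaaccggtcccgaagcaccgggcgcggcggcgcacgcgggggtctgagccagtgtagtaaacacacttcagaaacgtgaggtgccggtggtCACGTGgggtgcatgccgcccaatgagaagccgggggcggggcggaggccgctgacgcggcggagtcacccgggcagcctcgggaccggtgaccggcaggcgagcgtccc
Arntl, chr7:113207261-113207560, plus strand, ROR element at bases 277 to 287: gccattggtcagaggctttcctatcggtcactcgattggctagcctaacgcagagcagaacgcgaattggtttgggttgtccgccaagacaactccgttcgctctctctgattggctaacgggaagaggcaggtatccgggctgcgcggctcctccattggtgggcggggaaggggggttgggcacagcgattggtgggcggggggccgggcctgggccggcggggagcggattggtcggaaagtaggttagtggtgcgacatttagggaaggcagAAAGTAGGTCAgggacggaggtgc
Per1, chr11:69098699-69098998, plus strand, E-box at bases 85 to 90: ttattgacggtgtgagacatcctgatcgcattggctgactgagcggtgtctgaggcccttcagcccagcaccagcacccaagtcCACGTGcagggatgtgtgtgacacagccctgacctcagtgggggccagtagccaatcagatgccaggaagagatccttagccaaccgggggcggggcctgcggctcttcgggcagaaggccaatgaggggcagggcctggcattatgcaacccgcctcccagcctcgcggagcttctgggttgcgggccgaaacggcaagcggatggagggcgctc
Per3, chr4:151044616-151044915, minus strand, D-boxes at bases 46 to 53 and 93 to 100: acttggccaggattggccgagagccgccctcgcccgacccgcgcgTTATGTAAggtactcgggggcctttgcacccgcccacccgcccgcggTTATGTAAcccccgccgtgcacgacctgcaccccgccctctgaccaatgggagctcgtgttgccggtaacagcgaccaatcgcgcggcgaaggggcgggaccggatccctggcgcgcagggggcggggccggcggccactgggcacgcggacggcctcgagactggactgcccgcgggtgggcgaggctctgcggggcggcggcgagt

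On SD, 5 of the clock genes lay far apart between the genotypes. *Arntl* and *Cry1* were lower in *Mof*+/- and *Nr1d1*, *Nr1d2* and *Dbp* were higher, by 2.14 to 4.10 on the log2 scale. The differences of the *Per* genes, of *Cry2* and of *Clock* were smaller, between -1.06 and 0.42. With edgeR, 5 of the 10 genes had an adjusted p under 0.05, 3 higher and 2 lower, where the share over all genes tested was 5.24%. In 7 of the 10 the genotypes did not overlap in CPM, where the share over all genes was 40.3%. Because *Cry1* in this contrast chose the genes, nothing is read from these counts.

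Among the activators, *Arntl* was expressed at 35.6, 45.3 and 25.3 CPM in SD *Mof*+/+ and at 1.51, 1.53 and 1.78 CPM in SD *Mof*+/-. Every *Mof*+/- library was below every *Mof*+/+ library, and the values within *Mof*+/- were close to each other. The log2 fold change was -4.10 (standard error, SE, 0.44), or 17.2-fold lower. *Clock*, the partner of *Arntl*, was at 101, 125 and 67.5 CPM in *Mof*+/+ and at 45.3, 46.7 and 31.7 CPM in *Mof*+/- (log2 fold change -0.90, SE 0.29). The genotypes did not overlap in *Clock* either, but its difference was the smaller of the pair.

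Of the repressors, *Cry1* was at 30.7, 34.2 and 30.5 CPM in SD *Mof*+/+ and at 2.15, 4.89 and 0.446 CPM in SD *Mof*+/-. The lowest value rested on 3 counts (95% exact Clopper-Pearson interval 0.0920 to 1.30 CPM). The log2 fold change was -3.31 (SE 0.68). *Cry2*, its paralog, was at 62.3, 93.3 and 80.1 CPM in *Mof*+/+ and at 53.8, 31.6 and 41.8 CPM in *Mof*+/- (log2 fold change -0.53, SE 0.28), again without overlap. The *Per* genes overlapped between the genotypes. *Per1* was at 36.5, 57.7 and 35.2 CPM against 69.1, 30.8 and 36.0 CPM (log2 fold change 0.42, SE 0.36). *Per2* was at 35.1, 16.3 and 15.7 CPM against 17.4, 6.81 and 1.34 CPM (log2 fold change -1.06, SE 0.76), and *Per3* at 30.1, 37.7 and 29.3 CPM against 34.6, 10.7 and 5.95 CPM (log2 fold change -0.59, SE 0.56). In all 3 *Per* genes the library SD *Mof*+/- replicate 1 held the highest value of its group, and without it the log2 fold changes of *Per1*, *Per2* and *Per3* were 0.025, -2.09 and -1.58. *Per1*, which shares the E-box of *Cry1*, and *Per3*, with D-boxes, thus overlapped between the genotypes where *Cry1* and *Arntl* did not.

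The nuclear receptors and *Dbp* lay the other way. *Nr1d1* was at 10.2, 56.6 and 31.9 CPM in SD *Mof*+/+ and at 294, 249 and 251 CPM in SD *Mof*+/- (log2 fold change 3.36, SE 0.54). *Nr1d2* was at 13.7, 21.1 and 27.1 CPM against 81.9, 82.8 and 49.1 CPM (log2 fold change 2.14, SE 0.33). The spread of *Nr1d1* was wide within *Mof*+/+ and narrow within *Mof*+/-. *Dbp*, a PAR bZIP factor that follows the loop closely, was at 9.96, 12.9 and 11.7 CPM against 188, 138 and 110 CPM (log2 fold change 4.003, SE 0.28), the largest rise among the 10 genes. *Nr1d1* shares 263 of its 3077 exonic bases with *Thra* on the opposite strand, and *Dbp* shares 539 of 2993 with *Sphk2*, and the library kit does not mark strand. *Cry2* shares 295 of 6320 bases with D930015M05Rik and *Arntl* 33 of 7523 with Gm45355, also on the opposite strand. *Thra* was at 150 to 178 CPM in SD *Mof*+/+ and 68.0 to 104 CPM in SD *Mof*+/-, and *Sphk2* at 28.4 to 55.3 and 15.3 to 17.2 CPM, so that both partners were lower where *Nr1d1* and *Dbp* were higher.

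**Figure D1:**
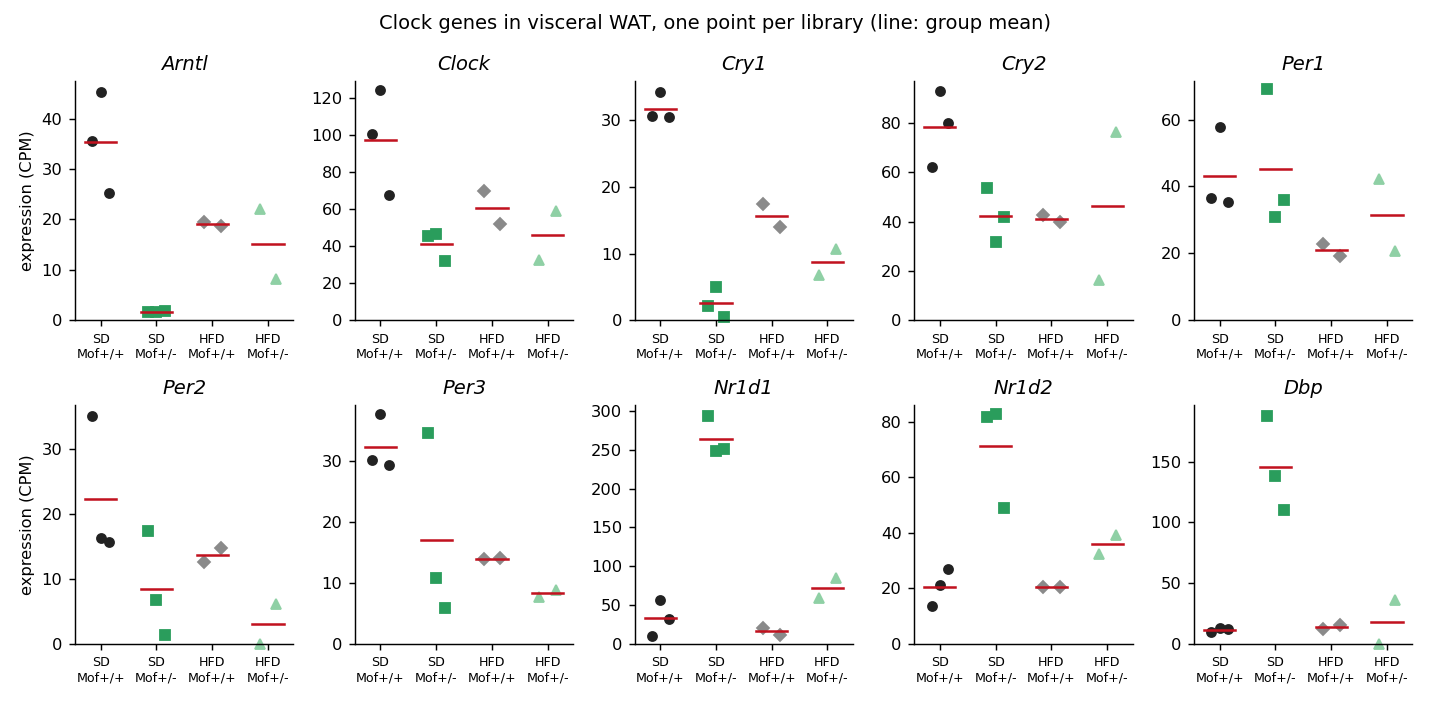
Expression of the 10 clock genes in CPM (vertical axes from 0) in each library of the 4 groups, 1 point per library, with group means as red lines. *Arntl* and *Cry1* are lowest and *Nr1d1*, *Nr1d2* and *Dbp* highest in the 3 SD *Mof*+/- libraries, and the 2 HFD *Mof*+/- libraries lie far apart in *Cry2*, *Arntl* and *Dbp*.

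The order of the levels per kilobase of exon changed with the group. In SD *Mof*+/+, *Cry2* was first at 12.4 ± 2.46 CPM per kb (standard deviation, n = 3) and *Per3* last at 3.37 ± 0.479, and the ranges of neighbours in this order overlapped throughout. In SD *Mof*+/-, *Nr1d1* was first at 85.9 ± 8.31 CPM per kb, followed by *Dbp* at 48.5 ± 13.1 and *Nr1d2* at 13.2 ± 3.55, with no overlap between these neighbours. *Cry1* at 0.748 ± 0.671 and *Arntl* at 0.214 ± 0.0200 CPM per kb came last, and their ranges overlapped. In HFD *Mof*+/+ the order again began with *Cry2* (6.50 ± 0.312 CPM per kb, n = 2), and *Nr1d1*, *Cry1*, *Dbp* and *Clock* followed between 5.15 and 4.43 with overlapping neighbours. In HFD *Mof*+/-, *Nr1d1* was first at 23.5 ± 5.88 CPM per kb (n = 2), without overlap with *Cry2*, and *Per2* was last at 0.525 ± 0.742.

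In the third SD libraries, whose headings disagree with their labels, *Arntl* was at 25.3 CPM in the library labelled *Mof*+/+ and 1.78 CPM in that labelled *Mof*+/-, and *Dbp* at 11.7 and 110 CPM. These clock gene values belong to the contrast that chose the genes and back neither the labels nor the headings. *Kat8* was at 20.4 CPM in the third library labelled *Mof*+/+ and 11.5 CPM in that labelled *Mof*+/-, and *Xist* at 0 counts and 58.0 CPM. In *Xist* and the 4 Y-linked genes either library lay with the others of its label. Whether the labels or the headings are right was not tested. With the 2 libraries exchanged, 0 of the 10 genes were called on SD, and the log2 fold changes were -1.57 (SE 1.25) for *Arntl*, -0.79 (SE 1.25) for *Cry1*, 0.77 (SE 1.20) for *Nr1d1*, 1.17 (SE 0.71) for *Nr1d2* and 1.26 (SE 1.24) for *Dbp*. The count of 5 genes called on SD varied with the libraries, from 1 to 5 with 1 library left out. It was 1 gene, *Dbp*, without SD *Mof*+/+ replicate 1 or SD *Mof*+/- replicate 2, 2 genes without *Mof*+/+ replicate 3 and 3 genes without *Mof*+/+ replicate 2. The share of all genes called fell with it, to 0.130% and 0.115% in the first 2 cases. The log2 fold change of *Cry1* was -4.15 without *Mof*+/- replicate 2, and that of *Nr1d1* was 4.03 without *Mof*+/+ replicate 2.

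Other quantities differed between the SD genotypes along with the clock genes, and their part in these values was not tested. The 12 adipocyte markers summed to 25669 to 34826 CPM in *Mof*+/+ and 53742 to 79371 CPM in *Mof*+/-, the 8 endothelial markers to 1213 to 3051 and 210 to 332 CPM, and the 6 mesothelial markers to 23.8 to 59.1 and 170 to 349 CPM. The 6 glial markers summed to 111 to 1111 CPM in *Mof*+/+ and 35.5 to 55.4 CPM in *Mof*+/-, and the 4 liver markers to 5.94 to 19.2 and 49.4 to 348 CPM. *Xist* was at 46.1 to 139 CPM in the 3 SD *Mof*+/- libraries and at 0 counts in the other 7, while *Ddx3y*, *Eif2s3y*, *Kdm5d* and *Uty* of the Y chromosome were at 0 counts in these 3 libraries alone, apart from *Kdm5d* and *Uty*, which were also at 0 in HFD *Mof*+/- replicate 1. The labels give no sex, and the study's methods describe male mice for WAT sequencing. Sex-linked expression and genotype cannot be told apart on SD. The log2 fold change fell with exonic length across genes (Spearman rho -0.43 over 13839 genes, which are not independent replicates). With a trend on length taken out, the log2 fold changes of *Clock* and *Cry2* moved to -0.26 and -0.19.

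The log2 CPM of *Per1*, *Per2*, *Per3*, *Nr1d1*, *Nr1d2* and *Dbp*, averaged, minus that of *Arntl*, *Clock* and *Cry1* gave 1 value per library, the balance of the 2 arms, given as a description. It was -1.30, -1.02 and -0.67 in SD *Mof*+/+ and 3.82, 2.60 and 3.16 in SD *Mof*+/-, with group means of -0.995 and 3.19. In HFD *Mof*+/+ it was -0.79 and -0.62, beside the SD *Mof*+/+ libraries. In HFD *Mof*+/- it was -2.38 in replicate 1, which has *Dbp* and *Per2* at 0 counts and whose value therefore depends on the prior count of 0.5, and 0.39 in replicate 2, which lay between the SD groups. The log2 ratio of *Arntl* to *Nr1d1* was between -0.33 and 1.80 in SD *Mof*+/+ and between -7.56 and -7.10 in SD *Mof*+/-, and was -1.43 and -3.38 in HFD *Mof*+/-. *Cry1* is in the second arm and its fall on SD chose the genes, so the balance on SD supports nothing. In the first arm, *Per2* and *Per3* had log2 fold changes of -1.06 and -0.59 on SD, against the direction of *Nr1d1*, *Nr1d2* and *Dbp*.

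**Figure D2:**
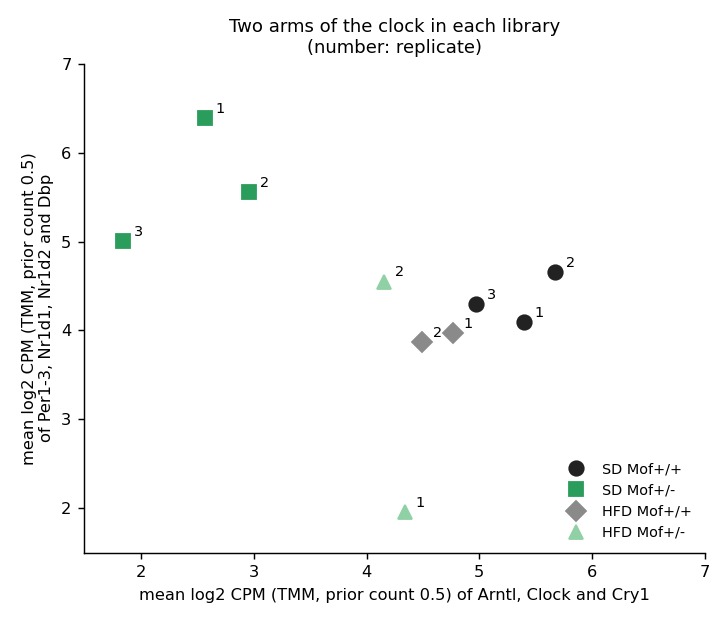
Mean log2 CPM of *Arntl*, *Clock* and *Cry1* (horizontal) against that of the *Per* genes, *Nr1d1*, *Nr1d2* and *Dbp* (vertical) in each of the 10 libraries, marked by group and numbered by replicate. The 3 SD *Mof*+/- libraries stand at the upper left, the SD and HFD *Mof*+/+ libraries lie near each other at the right, and HFD *Mof*+/- replicate 1 is low on the vertical axis, where 2 of its 6 genes had 0 counts.

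Between the genotypes on HFD, *Nr1d1* had the lowest p of the 10 genes. It was at 20.9 and 10.8 CPM in *Mof*+/+ and at 59.4 and 85.0 CPM in *Mof*+/- (log2 fold change 2.51, SE 0.50, adjusted p = 0.278). The value of 59.4 CPM rested on 62 counts (95% exact Clopper-Pearson interval 45.5 to 76.1 CPM). *Nr1d2* was at 20.5 and 20.6 CPM against 32.6 and 39.4 CPM (log2 fold change 1.13, SE 0.49, adjusted p = 0.492). Both *Mof*+/- libraries were above both *Mof*+/+ libraries in these receptors, and neither difference passed the threshold. *Thra*, the opposite-strand neighbour of *Nr1d1*, was at 49.8 and 50.5 CPM in *Mof*+/+ and 74.7 and 99.1 CPM in *Mof*+/-. The 8 macrophage markers summed to 4132 and 5243 CPM in HFD *Mof*+/+ and to 1171 and 2007 CPM in HFD *Mof*+/-, the 8 endothelial markers to 588 and 477 and to 390 and 415 CPM, and their part in the values on HFD was not tested.

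*Arntl* overlapped between the genotypes on HFD, and *Cry1* did not overlap but differed by less than on SD. *Arntl* was at 19.6 and 18.6 CPM in *Mof*+/+ and at 22.0 and 8.13 CPM in *Mof*+/- (log2 fold change 0.02, SE 0.90, adjusted p = 0.995), and its sign turned in 6 of the 12 alternatives. *Cry1* was at 17.4 and 13.9 CPM against 6.70 and 10.7 CPM (log2 fold change -0.53, SE 0.92, adjusted p = 0.894), lower in both *Mof*+/- libraries but within the error. *Per2* (12.7 and 14.7 against 0 and 6.15 CPM) and *Per3* (13.9 and 14.0 against 7.66 and 8.86 CPM) also lay lower in both *Mof*+/- libraries, with log2 fold changes of -1.78 (SE 1.63) and -0.43 (SE 0.95). *Dbp* was at 12.0 and 15.2 CPM in *Mof*+/+. Its *Mof*+/- libraries, at 0 counts (the floor of 3 counts is 2.87 CPM) and 36.3 CPM, stood on either side of them. *Cry2* behaved likewise, at 42.5 and 39.7 CPM against 16.3 and 76.5 CPM, and *Per1* was at 22.7 and 19.3 CPM against 42.1 and 20.6 CPM. *Clock* was at 69.7 and 51.9 CPM against 32.6 and 59.1 CPM, with a log2 fold change of -0.10 (SE 0.41).

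With edgeR, 0 of the 10 genes were called between the genotypes on HFD, as were 0% of all 14120 genes. At an unadjusted p under 0.05 it was 1 gene, *Nr1d1*, against 12.3% of all genes. DESeq2 also called 1 gene, *Nr1d1*, where it called 1.48% of all genes. In 5 of the 10 the genotypes did not overlap, 2 higher and 3 lower in *Mof*+/-, where the share over all genes was 54.4%, so that this count lay near the background. The median log2 fold change was 0.24 over the 10 genes and -0.24 over all genes. Leaving out a *Mof*+/- library left that group with 1 library, assumed to vary like the *Mof*+/+ pair. Then 5 genes were called without replicate 1 (*Cry2*, *Arntl*, *Nr1d1*, *Nr1d2* and *Dbp*, with 27.2% of all genes) and 6 without replicate 2 (*Cry2*, *Per1*, *Per2*, *Nr1d1*, *Nr1d2* and *Dbp*, with 47.9% of all genes). *Nr1d1* and *Nr1d2* were higher in *Mof*+/- in both cases, and *Cry2* and *Dbp* turned from higher to lower, with log2 fold changes of 1.06 and 1.59 without replicate 1 and of -0.94 and -10.19 without replicate 2, where the fit for *Dbp* is set by its 0 counts. The median of all genes was -1.48 without replicate 2, so that *Cry2* lay above it there as well. *Arntl* was at -1.06 without replicate 1.

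Between the diets in *Mof*+/+, *Per3* was the 1 clock gene past the threshold. It fell from 30.1, 37.7 and 29.3 CPM to 13.9 and 14.0 CPM (log2 fold change -1.09, SE 0.27, adjusted p = 0.0492). *Cry1*, at 30.7, 34.2 and 30.5 CPM on SD and 17.4 and 13.9 CPM on HFD, had a log2 fold change of -0.90 (SE 0.26, adjusted p = 0.0725). *Cry2* (-0.81, SE 0.23, adjusted p = 0.0667), *Per1* (-0.92, SE 0.30, adjusted p = 0.102) and *Arntl* (-0.77, SE 0.31, adjusted p = 0.161) had log2 fold changes of like size. *Per2* was at 15.7 CPM or more on SD and at most 14.7 CPM on HFD (log2 fold change -0.58, SE 0.43). *Clock*, *Nr1d1*, *Nr1d2* and *Dbp* overlapped between the diets, with log2 fold changes of -0.56, -0.94, 0.12 and 0.36.

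The number of genes called in this comparison was 1, *Per3*, against 9.75% of all genes. In 6 of the 10, all lower, the diets did not overlap, against 49.1% of all genes. The median log2 fold change was -0.79 over the 10 genes and -0.04 over all genes. *Per3* lay close to the threshold. Its call was lost without SD *Mof*+/+ replicate 1 or 2 and without either HFD *Mof*+/+ library, each of which left 0 genes called. It was also lost with no filter on low counts, with the replicate number as a block, with all 10 libraries in 1 fit, with a trend on length taken out and with the third SD libraries exchanged. DESeq2 called 3, *Cry1*, *Cry2* and *Per3*, where it called 20.0% of all genes. This comparison and that of the genotypes on SD share the SD *Mof*+/+ libraries. The 8 macrophage markers summed to 888 to 1875 CPM on SD and 4132 to 5243 CPM on HFD in *Mof*+/+, and the 8 endothelial markers to 1213 to 3051 and 477 to 588 CPM. The 12 adipocyte markers summed to 25669 to 34826 and 36349 to 40154 CPM, the 6 glial markers to 111 to 1111 and 51.3 to 53.1 CPM, and mitochondrially encoded genes took 6.26% to 8.82% and 3.13% to 4.23% of the counts. The log2 fold change fell with exonic length across genes (Spearman rho -0.28 over 14907 genes, which are not independent replicates). The part of these quantities in the result was not tested.

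Between the diets in *Mof*+/-, the mean levels of the 5 genes far apart on SD were nearer to those of *Mof*+/+ on HFD, and none of these differences passed the threshold with edgeR. *Arntl* was at 1.51 to 1.78 CPM on SD and at 22.0 and 8.13 CPM on HFD (log2 fold change 3.25, SE 1.17, adjusted p = 0.495). *Nr1d1* was at 249 to 294 CPM on SD and at 59.4 and 85.0 CPM on HFD (log2 fold change -1.88, SE 0.41, adjusted p = 0.229). *Dbp* was at 110 to 188 CPM on SD and at 0 and 36.3 CPM on HFD (log2 fold change -2.96, SE 1.11, adjusted p = 0.525, a value set in part by the 0 counts). *Cry1* was at 0.446 to 4.89 CPM on SD and 6.70 and 10.7 CPM on HFD (log2 fold change 1.82, SE 1.36, adjusted p = 0.773), and *Nr1d2* was at 49.1 to 82.8 CPM and at 32.6 and 39.4 CPM (log2 fold change -0.97, SE 0.44, adjusted p = 0.591). In these 5 genes the diets did not overlap. The SD *Mof*+/- libraries had *Xist* and 0 counts of the 4 Y-linked genes, whereas both HFD *Mof*+/- libraries had *Ddx3y* and *Eif2s3y* and 0 counts of *Xist*, so that diet, age and sex-linked expression cannot be told apart in *Mof*+/-. The 8 endothelial markers summed to 210 to 332 CPM on SD and 390 and 415 CPM on HFD, and the 6 mesothelial markers to 170 to 349 CPM and to 142 and 0.904 CPM. The 12 adipocyte markers summed to 53742 to 79371 CPM on SD and 19968 and 52741 CPM on HFD, and the 4 liver markers to 49.4 to 348 CPM and to 0 counts in both HFD libraries. The part of these quantities was not tested. This comparison shares the SD *Mof*+/- libraries with the contrast that chose the genes, and it is no independent support for it.

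With edgeR, 0 of the 10 genes were called between the diets in *Mof*+/-, as were 0% of all 13610 genes. At an unadjusted p under 0.05 it was 3 genes, *Arntl*, *Nr1d1* and *Dbp*, against 8.57% of all genes, and DESeq2 called 2, *Arntl* and *Nr1d1*, against 2.95%. The 5 genes without overlap compare with 27.6% of all genes. Without HFD *Mof*+/- replicate 2, edgeR called 3, *Arntl*, *Nr1d1* and *Dbp*, with 13.8% of all genes. With replicate 1 left out it called 0.

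**Figure D3:**
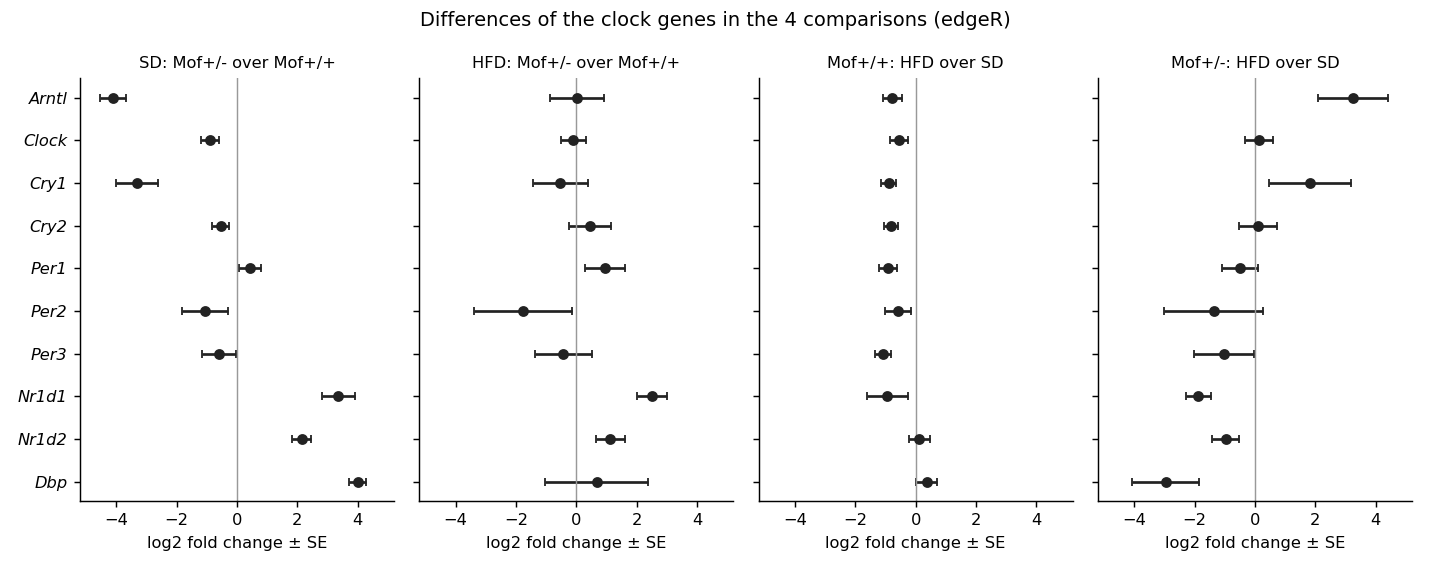
Log2 fold changes of the 10 clock genes with standard errors (edgeR) between the genotypes on SD and on HFD and between the diets in *Mof*+/+ and in *Mof*+/-. On SD the genes spread from -4.10 (*Arntl*) to 4.003 (*Dbp*), in *Mof*+/+ all but *Nr1d2* and *Dbp* lie below 0 within a narrow range, and in *Mof*+/- the extremes are *Arntl* at 3.25 and *Dbp* at -2.96.

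The genotype by diet difference, the log2 fold change of genotype on HFD minus that on SD in a fit to all 10 libraries, was 3.98 (SE 0.87) for *Arntl*, 2.70 (SE 1.07) for *Cry1* and -3.29 (SE 1.10) for *Dbp*. It was -1.11 (SE 0.54) for *Nr1d2* and -0.95 (SE 0.78) for *Nr1d1*, the receptors that were higher in both HFD *Mof*+/- libraries. With a library left out, the value ran from 3.04 to 4.64 for *Arntl*, from 2.29 to 3.61 for *Cry1*, from -1.62 to -0.38 for *Nr1d1* and from -14.05 to -2.43 for *Dbp*, whose lowest value, without HFD *Mof*+/- replicate 2, is set by the 0 counts of replicate 1. The lowest value of *Arntl* was that without HFD *Mof*+/- replicate 1. The values of *Nr1d1* included -0.48 without SD *Mof*+/+ replicate 1, -1.62 without SD *Mof*+/+ replicate 2 and -0.38 without HFD *Mof*+/+ replicate 1. With a trend on length taken out, *Nr1d2* was at -0.089 and *Nr1d1* at 0.25. These values hold the contrast that chose the genes and are given without a test.

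Further genes of the pathway were read from 3 lists, of which 11 were loop transcription factors, 12 were kinases, ubiquitin ligases and other partners of the clock proteins, and 8 were output genes. On SD, *Nfil3*, the repressor at D-boxes, lay with *Arntl*, at 48.5, 28.8 and 26.1 CPM in *Mof*+/+ and 4.13, 5.85 and 8.63 CPM in *Mof*+/- (log2 fold change -2.11, SE 0.46). It was the single gene past the threshold with edgeR of 10 loop factors tested, beside 5.24% of all genes, and it was past it in 7 of the 10 other settings and in 1 of the 6 fits that left out a library. DESeq2 called 2, *Nfil3* and *Npas2*, beside 15.9% of all genes. *Npas2*, a substitute for *Clock*, was at 6.57 to 10.7 CPM against 1.15 to 2.38 CPM, but *Tef* and *Hlf*, the relatives of *Dbp*, overlapped between the genotypes with log2 fold changes of 0.46 (SE 0.31) and 0.09 (SE 0.61). *Bhlhe40*, *Bhlhe41* and *Ciart*, which like *Dbp* are driven by E-boxes, also overlapped, with log2 fold changes of 0.57, 0.76 and 1.35. Of the 12 protein partners, 0 were past the threshold with edgeR (2 at an unadjusted p under 0.05, beside 25.7% of all genes) and 0 with DESeq2 (15.9% of all genes), and the largest difference was that of *Timeless* (-1.73, SE 1.08). Of the 8 outputs, 0 were past it with edgeR (4 unadjusted) and 2 with DESeq2 (*Noct* and *Fkbp5*), beside the same shares of all genes, and *Fkbp5*, which follows glucocorticoids, had the largest, at 93.5, 164 and 120 CPM against 31.8, 27.2 and 4.16 CPM (log2 fold change -2.24, SE 0.59).

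Between the diets in *Mof*+/+, 4 of the 8 outputs fell and 0 rose past the threshold with edgeR, beside the 9.75% of all genes. DESeq2 called 5, these 4 and *Noct*, which was higher on HFD, beside 20.0% of all genes. The 4 were *Fkbp5* (log2 fold change -2.05, SE 0.28, adjusted p = 0.0107), the glucocorticoid-driven factor *Klf9* (-1.94, SE 0.32, adjusted p = 0.0169), the deubiquitinase *Usp2* (-2.14, SE 0.47, adjusted p = 0.0368) and *Nampt*, an enzyme of NAD synthesis (-0.91, SE 0.19, adjusted p = 0.0307). The deadenylase *Noct* lay the other way, at 27.8 to 48.1 CPM on SD and 61.1 and 80.7 CPM on HFD (log2 fold change 1.03, SE 0.27, adjusted p = 0.0566). *Tsc22d3*, of the same list, overlapped between the diets (log2 fold change -0.19, SE 0.23, adjusted p = 0.637). Of 11 protein partners tested, edgeR called 0 (3 unadjusted, beside 28.4% of all genes) and DESeq2 2 (*Csnk1e* and *Fbxw11*, beside 20.0%), counts near the background, and *Csnk1e* had the largest difference, -0.64 (SE 0.20, adjusted p = 0.0900). Of the 9 loop factors reported here, edgeR called 0 (2 unadjusted, *Tef* and *Hlf*) and DESeq2 1, *Hlf* (edgeR log2 fold change -2.03, SE 0.62, adjusted p = 0.0843). The calls of the 4 outputs held in 6 or 7 of the 9 other settings and rested on few libraries. Without HFD *Mof*+/+ replicate 2 none of the 4 was called, without HFD *Mof*+/+ replicate 1 only *Klf9* was, without SD *Mof*+/+ replicate 1 only *Fkbp5* was, and without SD *Mof*+/+ replicate 2 *Klf9* and *Fkbp5* were.

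Between the genotypes on HFD and between the diets in *Mof*+/-, edgeR called 0 genes of the 3 lists. DESeq2 called 0 on HFD and 1, *Noct*, between the diets in *Mof*+/-, beside 1.48% and 2.95% of all genes. On HFD, 4 of 29 genes tested were below an unadjusted p of 0.05, near the 12.3% of all genes. *Tef* was at 57.2 and 57.8 CPM in *Mof*+/+ and 87.1 and 90.6 CPM in *Mof*+/- (log2 fold change 0.96, SE 0.30, adjusted p = 0.293), and *Usp2* and *Tsc22d3* were also higher in both *Mof*+/- libraries. *Wee1*, a cell cycle kinase, was at 3.10 and 1.56 CPM in *Mof*+/+ and at 0 counts in both *Mof*+/- libraries, where 3 counts are 2.87 and 0.542 CPM. The largest differences of the other lists were those of *Arntl2*, a paralog of *Arntl* (1.73, SE 1.26), and *Timeless* (-2.24, SE 1.59). Between the diets in *Mof*+/-, 2 of 30 genes were below an unadjusted p of 0.05 with edgeR, *Noct* and *Klf9*, beside 8.57% of all genes. *Noct* was at 4.31, 10.3 and 10.9 CPM on SD and 54.6 and 73.2 CPM on HFD (log2 fold change 2.89, SE 0.61, adjusted p = 0.212). *Nfil3* was at 4.13 to 8.63 CPM on SD and 41.2 and 10.3 CPM on HFD (log2 fold change 2.08, SE 0.93, adjusted p = 0.588). The largest differences by list were those of *Ciart* (-2.97, SE 2.32), *Csnk1e* (-1.06, SE 0.58) and *Wee1*, which had 0 counts in 1 SD library and both HFD libraries.

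**Figure D4:**
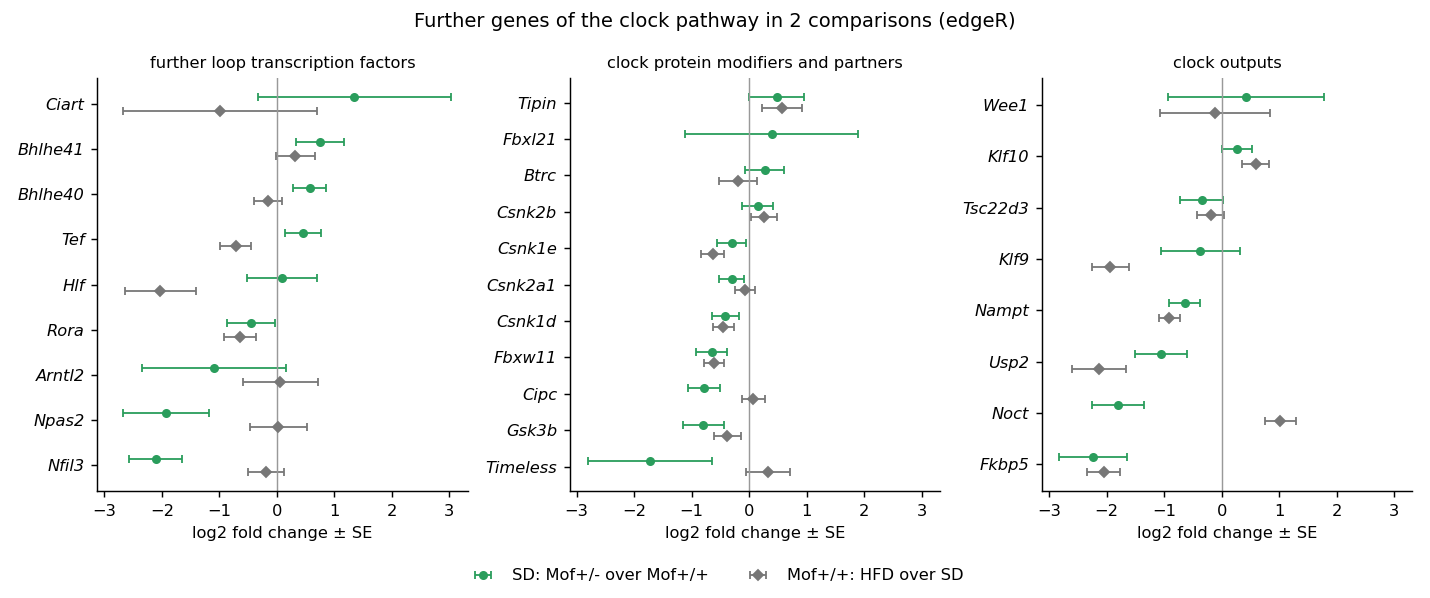
Log2 fold changes with standard errors (edgeR) of the further clock pathway genes reported here, in 3 lists, between the genotypes on SD (circles) and between the diets in *Mof*+/+ (diamonds). *Fkbp5* lies below -2 in both comparisons, which share the SD *Mof*+/+ libraries, whereas *Noct* is at -1.80 in the first and 1.03 in the second.

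Over the 10 libraries, the level of *Arntl* followed *Cry1* (Pearson's r 0.83) and ran against *Nr1d2* (-0.90), *Nr1d1* (-0.84) and *Dbp* (-0.72), and its values with *Per2* (-0.02) and *Cry2* (0.02) were close to 0. These values describe 10 libraries that share groups and depth. They include the SD libraries of the contrast that chose the genes and are no independent support for it. Of 9750 genes with a mean of at least 10 CPM, *Ubp1* (0.97), *Mgat4a*, *Mark3* and *Atp10d* (0.95) were among the 5 most like *Cry1*. Those most like *Arntl* were the nuclear RNA *Neat1* (0.97), *Zfp282*, *Aplnr*, *Dtx4* and *Ddx3y* (0.95), of which *Ddx3y* lies on the Y chromosome, and those most like *Dbp* were *Ier3* (0.99), *Map1lc3b*, *Ctdspl*, *Apopt1* and *Ugdh* (0.97). *Neat1* was at 1880 CPM on average in SD *Mof*+/+ and 120 CPM in SD *Mof*+/-, and *Aplnr* at 125 and 2.60 CPM.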

How the data were processed

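Polyadenylated RNA of mouse visceral WAT was sequenced (TruSeq RNA v2, a kit that does not mark strand), with libraries labelled as biological replicates. Per the submitters' processing notes, STAR and featureCounts (Subread 1.5.0-p1) were used with GRCm38, and the authors deposited raw counts per gene for each library. Identifiers were matched to GENCODE M21 with the version dropped (47224 of 47937), which also gave exonic lengths.

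The clock genes, lists and tests were chosen with earlier results of these data known. Groups followed the sample labels. Each comparison of 2 groups used edgeR 4.0.16 in R 4.3.3 (quasi-likelihood test, TMM scaling, filterByExpr, two-sided, Benjamini-Hochberg over all genes tested, threshold 0.05). CPM were scaled to the total on genes. Alternatives were DESeq2 1.42.0, its size factors, TMM without mitochondrial and muscle genes, no filter, a minimum of 10 counts throughout, a block for the replicate number, 1 fit of all 10 libraries, an exonic length trend as offset (lowess span 0.3), exchange of the third SD libraries, and each library left out. The edgeR fit was tested on simulated data.

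The text names the 10 clock genes, list genes past the threshold, the largest difference per list and comparison, and the 5 genes most correlated with *Cry1*, *Arntl* and *Dbp*. The loop factors were *Npas2*, *Arntl2*, *Rora*, *Rorb*, *Nfil3*, *Tef*, *Hlf*, *Bhlhe40*, *Bhlhe41* and *Ciart*, the protein partners *Csnk1d*, *Csnk1e*, *Csnk2a1*, *Csnk2b*, *Fbxl21*, *Btrc*, *Fbxw11*, *Gsk3b*, *Timeless*, *Tipin* and *Cipc*, and the outputs *Nampt*, *Wee1*, *Usp2*, *Noct*, *Klf9*, *Klf10*, *Tsc22d3* and *Fkbp5*. 1 gene each of the loop factors, the partners and those most correlated with *Cry1* is not reported here by name. Other list genes named were chosen after their values were seen. Intervals and floors of 3 counts cover counting error only.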

Additional observations from a re-analysis of the deposited data

Results flagged for a closer look

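The diet differences of *Cry1* and of *Arntl* lay on opposite sides of 0 in the genotypes, and none of these 4 differences passed the threshold with edgeR. All HFD *Mof*+/+ libraries were below all SD *Mof*+/+ libraries in both genes, and all HFD *Mof*+/- libraries were above all SD *Mof*+/- libraries. The diets did not overlap in 49.1% of all genes in *Mof*+/+ and in 27.6% in *Mof*+/-. The difference between the diet effects was 2.70 on the log2 scale for *Cry1* and 3.98 for *Arntl*, and it was not tested, since it holds the contrast that chose the genes. The SD *Mof*+/- libraries had *Xist* and no counts of the Y-linked genes, whereas the HFD *Mof*+/- and all *Mof*+/+ libraries had *Ddx3y* and no *Xist*, so that diet and sex-linked expression in *Mof*+/- cannot be told apart. With the third SD libraries exchanged, the log2 fold change of *Cry1* between the diets in *Mof*+/- was -0.16.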

How the results depend on the processing

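Between the genotypes on SD, 5 clock genes were called (5.24% of all genes), and 1 to 5 with a library left out (0.115% to 6.89%). It was 0 with the third SD libraries exchanged (0%) and 5 with both left out (4.08%). On HFD 0 were called, 1 with DESeq2, 1 with the replicate block, and 0 to 6 with a library left out. Between the diets in *Mof*+/+ 1 was called (9.75%), 3 with DESeq2 (20.0%) and 2 with at least 10 counts in every library (16.5%). With an SD library left out it was 0 to 1 (1.63% to 14.9%). It was 0 with no filter (8.01%), the replicate block (9.77%), all 10 libraries in 1 fit (0.893%), the length trend (7.24%) or the exchange (0%). In *Mof*+/- 0 were called (0%), and 2 each with DESeq2 (2.95%), no filter (2.10%) and the replicate block (1.80%). It was 1 with all 10 libraries in 1 fit (1.19%) and 0 with an SD library left out (0%). The replicate numbers did not pair the libraries (correlations of deviations of -0.043 to 0.031), and with the block 5 genes were called on SD (3.09% of all genes).

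The signs of some values turned, and the cause was not tested. On HFD, the log2 fold change of *Arntl* was -0.021 with TMM without mitochondrial and muscle genes, -0.0083 with no filter, -0.15 with at least 10 counts, -0.18 with the block, -0.11 with all 10 libraries and -1.06 without *Mof*+/- replicate 1. With the length trend, which moved the median of all genes to 0.79 on HFD and 0.56 between the diets in *Mof*+/-, *Cry1* was at 0.60, *Per3* at 0.92 and *Clock* at 1.21 on HFD, and *Per1* at 0.87, *Per3* at 0.12 and *Nr1d2* at 0.083 between the diets. Relative to the median of all genes, *Cry1* and *Clock* on HFD and *Per3* and *Nr1d2* between the diets kept their side, and *Per3* on HFD and *Per1* between the diets did not. *Clock* on HFD was at 0.10 without *Mof*+/+ replicate 1 and 0.13 without *Mof*+/- replicate 1, and *Dbp* at -0.96 with the block. Without HFD *Mof*+/- replicate 2, with medians of all genes of -1.48 and -1.38, *Cry2* was at -0.94 and *Dbp* at -10.19 on HFD, and *Cry2* at -1.28, *Per1* at 0.0029 and *Clock* at -0.23 between the diets in *Mof*+/-. Relative to these medians *Cry2* in both comparisons and *Clock* kept their side, and *Dbp* and *Per1* did not. Between these diets *Cry2* was also at -0.12 and *Clock* at -0.0074 with the block, and *Cry2* at -0.0999 without SD *Mof*+/- replicate 2. With the exchange, *Cry1* was at -0.16, *Cry2* at -0.060 and *Clock* at -0.019 there, and *Nr1d2* at -0.60 and *Dbp* at -1.96 between the diets in *Mof*+/+, where *Nr1d2* was at -0.099 without SD *Mof*+/+ replicate 1.

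With a library left out, the values of genes whose sign turned ran from -1.06 to 0.60 (*Arntl*), -0.94 to 1.06 (*Cry2*), -0.51 to 0.13 (*Clock*) and -10.19 to 1.59 (*Dbp*) on HFD, from -0.099 to 0.35 (*Nr1d2*) between the diets in *Mof*+/+, and from -1.28 to 0.73 (*Cry2*), -1.25 to 0.0029 (*Per1*) and -0.23 to 0.41 (*Clock*) between the diets in *Mof*+/-.

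The difference in arm balance was 4.18 on SD (3.52 with further genes), 0.29 between the diets in *Mof*+/+ (0.0057) and -0.29 on HFD, where it was 0.038 with a prior count of 2, 1.10 without *Mof*+/- replicate 1, and -1.67 to 1.10 with a library left out. The difference on SD holds the fall of *Cry1* that chose the genes. The 2 libraries per HFD group and the 1044355 counts of 1 of them limit each result on HFD.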
